A study of Saccharomyces cerevisiae with 9 samples.

Results

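The comparison of yeast cells 60 min after thawing with cells 30 min after thawing covered 2457 genes, those with a value on all 6 arrays of these times, of the 5189 genes on both array platforms (47.35%). The cells were Saccharomyces cerevisiae S288C, a laboratory strain, in YPD, a rich glucose medium. An exponential culture grown at 30 °C (absorbance 1.0) was frozen at -80 °C for 1 week with no protecting agent, thawed in water at 30 °C over 25 min and then kept incubating. Of the 600 ml grown, 400 ml went into the freezer, 200 ml served as the unfrozen control, and 100 ml was drawn at each recovery time. Each array set the poly(A) RNA of recovering cells, in Cy5, against that of the culture before freezing, in Cy3, and each time had 3 arrays from independent samples, numbered 1 to 3. The groups at 30 and 60 min thus share the strain, the freeze, the thaw and the kind of control, and differ by the further incubation.

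Freezing without a protectant exposes cells to ice, concentrated solutes and damaged membranes, and a thawed culture holds cells that recover beside cells that do not. The labels give no survival, so in these bulk samples a change in the mix of cells and a change in the RNA of each cell cannot be told apart. When yeast is stressed it lowers the transcripts of ribosomal proteins and of the factors that build ribosomes and raises those of heat shock and other protective proteins. When growth resumes, the ribosomal genes recover, membranes are remodelled through the fatty acid desaturase Ole1 and the enzymes of phospholipid and sterol synthesis, and histone genes are transcribed as cells enter S phase.

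A value is the log2 ratio of recovering cells to cells before freezing, and a difference is the mean over the 3 pairs of equally numbered arrays of the 60 min value minus the 30 min value. Errors of differences are limma's moderated standard errors, from a fit of all 9 arrays of the series with the replicate number as a block, and a gene passed at a Benjamini-Hochberg adjusted p under 0.05 over all 2457 genes. The tables do not say which channel is the numerator. Recovering over unfrozen cells was assumed from the labels, and all signs would be opposite otherwise. The 60 min arrays were spread more widely than the 30 min arrays, with SDs of 1.02, 0.980 and 0.674 against 0.733, 0.618 and 0.555 for replicates 1 to 3, and they held values for 3636 to 4624 genes against 3795 to 4624. Replicate 1 was on a first platform and replicates 2 and 3 on a second. Across genes, the 3 pair differences correlated at 0.38, 0.36 and 0.21, as a description only. Of all 2457 genes, 20.0% were higher in all 3 pairs and 21.6% lower. All 60 min values lay above all 30 min values for 6.11% and below for 10.2%. Counts of list members below are to be read beside these shares.

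Between 30 and 60 min, 6 of the 2457 genes passed (0.244%), of which 3 rose and 3 fell (0.122% each). RPS15 (YOL040C), encoding a small subunit ribosomal protein, and RPL8A (YHL033C), encoding a large subunit ribosomal protein, were among those that rose. OLE1 (YGL055W), the only fatty acid desaturase of yeast, IZH4 (YOL101C), a membrane protein linked to zinc and sterol metabolism, and EIS1 (YMR031C), a protein of the eisosomes that underlie furrows of the plasma membrane, were the 3 that fell. At an unadjusted p under 0.05 there were 384 genes (15.6%), 204 higher (8.30%) and 180 lower (7.33%). The count depends on the fit. The 6 arrays of these times fitted alone, with the same block, gave 58 genes higher (2.36%) and 43 lower (1.75%), which include all 6 of these genes, and the 9 arrays without the block gave 0 in each direction, with 262 genes at an unadjusted p under 0.05. With every array set to the same median absolute deviation, called equal spread below, there were also 0 calls, with 237 at an unadjusted p under 0.05. The count of 101 in the 6 arrays itself went to 0 of 2976 genes without replicate 2, with 399 at an unadjusted p under 0.05. Genes from that fit are therefore given below as values and not as changes. From the fit of 9 arrays, leaving out replicate 1, 2 or 3 gave 9, 22 and 1 calls of 2950, 2976 and 2847 genes. More genes were tested there because fewer arrays had to hold a value.

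**Figure D1:**
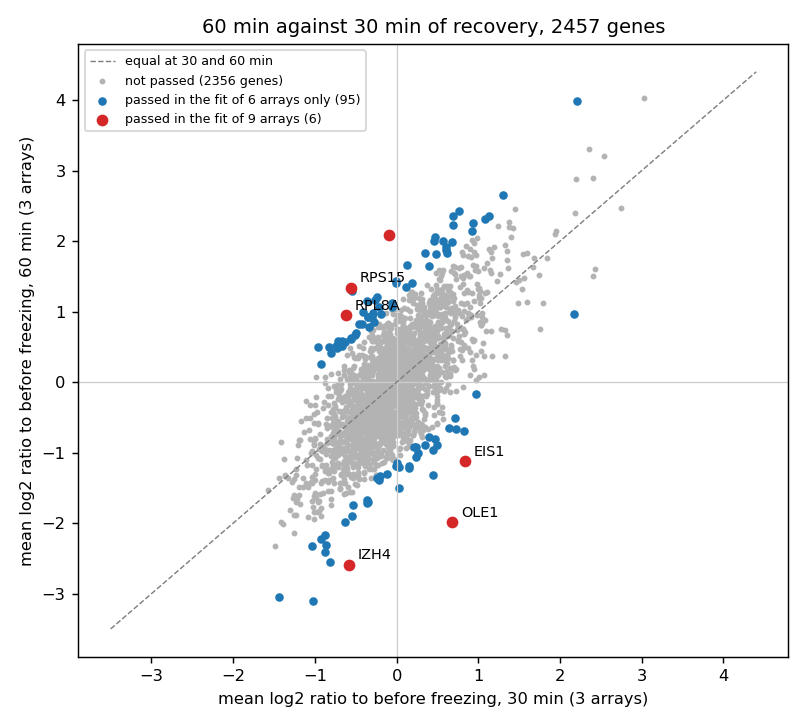
Mean log2 ratio to before freezing at 60 min (vertical axis) against 30 min (horizontal axis) for the 2457 genes, with the 6 genes that passed in the fit of 9 arrays in red and the 95 that passed in the fit of 6 arrays only in blue. The dashed line marks equal ratios, and OLE1 lies farthest from it among the red points.

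OLE1 had log2 ratios of 2.48, -0.41 and -0.04 at 30 min and -2.41, -1.49 and -2.06 at 60 min in replicates 1, 2 and 3. Its groups did not overlap, and the gene was the farthest from 0 of all 2457 differences, at -2.66 ± 0.49 or 6.33-fold lower (adjusted p = 0.0174). Replicate 1 at 30 min stood far above the others. Without replicate 1 the difference of OLE1 was -1.54, with an adjusted p of 0.0594.

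**Figure D2:**
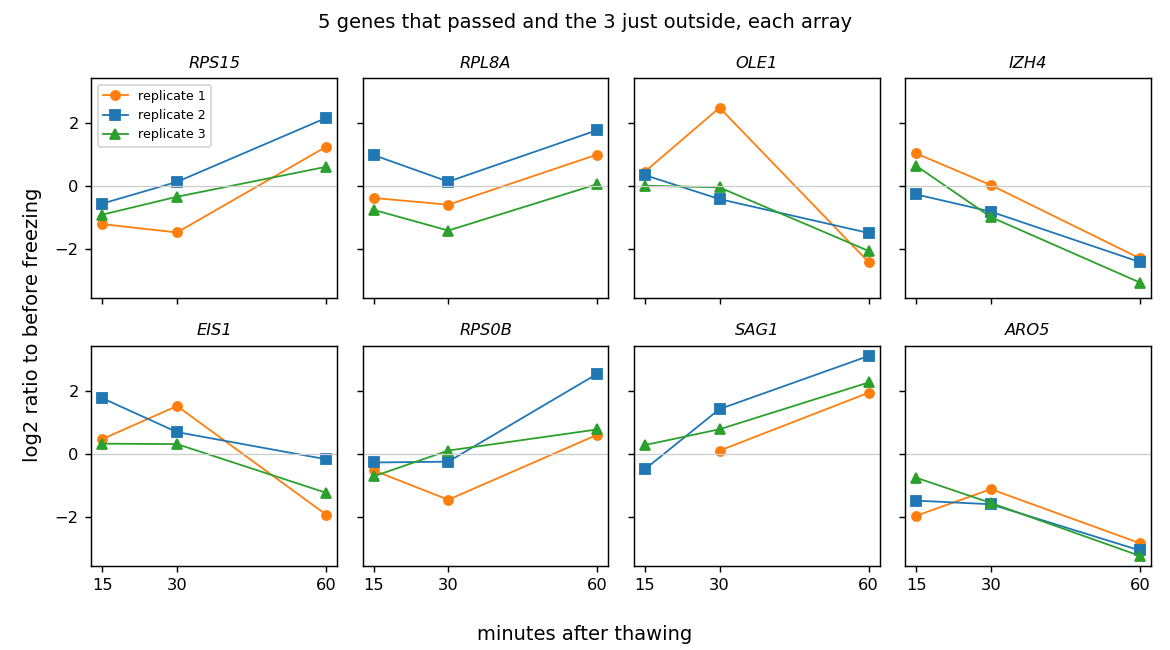
Log2 ratio to before freezing (vertical axis) on each array at 15, 30 and 60 min after thawing (horizontal axis) for 5 genes that passed and the 3 just outside the threshold, with a line for each replicate number. All 3 lines of RPS15 and RPL8A end above their 30 min points and all 3 lines of OLE1, IZH4 and EIS1 below them. SAG1 has no 15 min value in replicate 1.

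IZH4 stood at 0.03, -0.81 and -0.98 at 30 min and at -2.29, -2.41 and -3.06 at 60 min. It fell in every pair, by 2.00 ± 0.36 on the log2 scale (adjusted p = 0.0174), with no overlap of the groups. The 3 other IZH genes, its relatives, did not pass and had differences of -1.46 ± 0.40 (IZH2, adjusted p = 0.112), -0.19 (IZH1) and 0.64 (IZH3). Of the 9 tested genes of the zinc and IZH list, 5 were lower in all 3 pairs and 2 higher, among them COT1, a vacuolar zinc transporter (-0.94, adjusted p = 0.203), and ZRT2, a plasma membrane zinc transporter (0.72, adjusted p = 0.293). Over all genes tested, 20.0% were higher in all 3 pairs and 21.6% lower.

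EIS1 had 1.51, 0.68 and 0.30 at 30 min and -1.93, -0.18 and -1.24 at 60 min. It thus stood above the culture before freezing on every 30 min array and below it on every 60 min array, and fell by 1.95 ± 0.41 (adjusted p = 0.0475). Without replicate 1 the difference was -1.20 (adjusted p = 0.261), so its size rests largely on that pair. The core eisosome subunits had differences above 0. PIL1 differed by 0.60 (adjusted p = 0.394) and LSP1 by 0.97 (adjusted p = 0.258), and neither passed. The third pair of LSP1 differed by -0.45.

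Of the fatty acid and phospholipid list, 14 of 30 genes were tested, OLE1 fell, and the other 13 did not pass. The mean difference was below 0 for 12 of the 14, with a median of -0.19, and -0.46 without replicate 1, beside -0.01 for all genes. FAA4, which activates long-chain fatty acids, had 0.01, -0.30 and -0.80 at 30 min and -0.91, -2.09 and -2.14 at 60 min, without overlap, a difference of -1.35 ± 0.35 (adjusted p = 0.0942). The elongase gene ELO1 was at 0.54, 0.50 and 0.69 at 30 min and at 0.38, -0.27 and -0.47 at 60 min (-0.70, adjusted p = 0.352). The elongase gene ELO3 had a difference of the opposite sign (0.75, adjusted p = 0.296). INO4, a subunit of the activator of phospholipid genes, and CHO2, a phosphatidylethanolamine methyltransferase, were lower in all 3 pairs, with differences of -0.49 and -0.28, also without passing.

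Genes of ergosterol synthesis had differences of both signs. Of 18 tested genes, 6 had all 60 min values above all 30 min values and 2 had them below, beside 6.11% and 10.2% of all genes, and none passed. The 6 were ERG28 (1.41 ± 0.38), ERG25 (1.31 ± 0.34), ERG1 (1.27 ± 0.40), ERG3 (1.04 ± 0.33), ERG5 (0.98 ± 0.34) and ERG4 (0.87 ± 0.35), with adjusted p of 0.100 to 0.232. Without replicate 2 the difference of ERG1 was 0.57. ERG1 encodes squalene epoxidase, which uses oxygen, ERG25 and its scaffold ERG28 act in removing methyl groups from the sterol ring, and ERG3, ERG5 and ERG4 act at the end of the pathway. ERG25 had -0.98, -0.29 and -0.88 at 30 min and 0.28, 0.91 and 0.58 at 60 min, below the culture before freezing at the earlier time and above it at the later. The 2 genes below were IDI1, an early isomerase (-0.98, adjusted p = 0.226), and ERG6, the sterol methyltransferase (-0.69, adjusted p = 0.394). The median of the list was 0.12, 0.21 with equal spread, and 0.057, 0.41 and 0.075 without replicates 1, 2 and 3.

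RPS15 had -1.47, 0.13 and -0.34 at 30 min and 1.24, 2.16 and 0.61 at 60 min. Its groups did not overlap, and it rose by 1.90 ± 0.37 (3.72-fold, adjusted p = 0.0262). Without replicates 1, 2 and 3 the adjusted p of RPS15 was 0.079, 0.024 and 0.063. RPL8A had -0.59, 0.14 and -1.41 at 30 min and 1.00, 1.77 and 0.06 at 60 min. Its 60 min value in replicate 3 lay below its 30 min value in replicate 2, yet the 3 pairs agreed closely. RPL8A rose by 1.57 ± 0.33 (2.96-fold, adjusted p = 0.0475). Without replicates 1, 2 and 3 its difference was 1.55, 1.53 and 1.61. It passed in none of these fits (adjusted p = 0.058, 0.081 and 0.173). RPS0B, of the small subunit, lay just outside the threshold with -1.46, -0.26 and 0.10 at 30 min and 0.60, 2.53 and 0.77 at 60 min (1.84 ± 0.40, adjusted p = 0.0587).

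Of 107 tested cytosolic ribosomal protein genes, those 2 passed, and 13 passed in the fit of 6 arrays, all of them higher, beside 2.36% of all genes higher and 1.75% lower in that fit. The mean difference was above 0 for 69 and below 0 for 38, and 31 were higher in all 3 pairs against 11 lower (29.0% and 10.3%, beside 20.0% and 21.6% of all genes). All 60 min values lay above all 30 min values for 17 of the 107 (15.9%) and below for 6 (5.61%), beside 6.11% and 10.2% of all genes. The median difference of the 107 was 0.26, 0.27 with equal spread and 0.099 without replicate 1. By pair the median was 0.64, 0.32 and -0.18, so the third pair did not share the direction. The median log2 ratio of the list was -0.78, -0.26 and -0.13 on the 30 min arrays and -0.12, -0.00 and -0.17 on the 60 min arrays. The first 30 min array stood lowest. The 48 genes of the small subunit and the 59 of the large subunit had like medians, 0.26 and 0.22. RPL13A, 1 of the 13, had -1.34, -0.22 and -0.64 at 30 min and 0.03, 1.12 and 0.31 at 60 min (1.22 ± 0.33, adjusted p = 0.108). Many ribosomal protein genes have a near-identical copy, and the arrays may not keep the copies apart.

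Some values repeat on single arrays. On the third 30 min array, 105 of 4624 genes lay within 0.01 of a log2 ratio of 0.20, among them 20 ribosomal protein genes and 4 core histone genes. Of the 69 such genes that were tested, 12 also lay within 0.01 of 0.89 on the first 30 min array (17.4%, beside 1.02% of all genes tested) and 15 within 0.01 of -0.29 on the third 60 min array (21.7% beside 1.87%). They include strongly transcribed genes: the glycolytic ENO1 and TDH3 and the elongation factor gene TEF1 stood within 0.01 of 0.89 on the first and of 0.20 on the third 30 min array. The tables hold no intensities, and the cause was not tested. Without the 105 genes, 87 ribosomal protein genes had a median difference of 0.29, with pair medians of 0.78, 0.31 and 0.13, and 31 were higher in all 3 pairs against 6 lower.

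**Figure D3:**
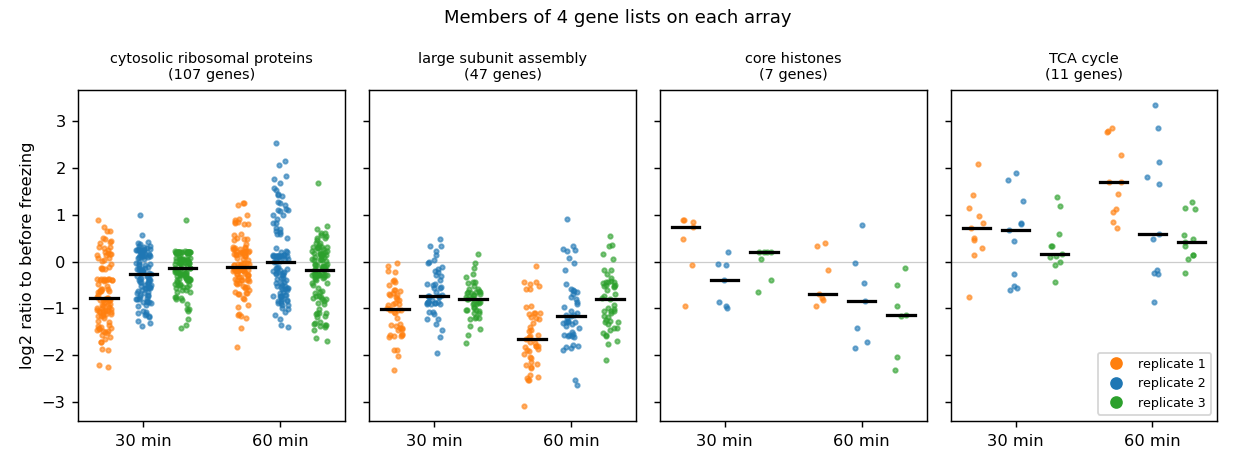
Log2 ratio to before freezing (vertical axis) of each tested member of 4 gene lists on each 30 min and 60 min array (horizontal axis), with a bar at the median of each array. The ribosomal protein median is lowest on the first 30 min array, the large subunit assembly medians are below 0 on all 6 arrays, and the histone medians are below 0 on all 3 arrays at 60 min.

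Of 47 tested factors that assemble the large ribosomal subunit, 38 had a mean difference below 0, beside 1257 of all 2457 genes, and none passed. In all 3 pairs 19 were lower and 5 higher (40.4% and 10.6%, beside 21.6% and 20.0% of all genes). The median difference of the 47 was -0.33, with -0.56, -0.33 and -0.13 by pair. Their median log2 ratio was already -1.01, -0.72 and -0.79 at 30 min and was -1.65, -1.16 and -0.80 at 60 min. With equal spread the median difference was -0.02. REI1, a late export and maturation factor, had -0.43, -0.74 and -0.47 at 30 min and -2.19, -1.19 and -1.30 at 60 min (-1.02 ± 0.36, adjusted p = 0.195). NOC2, NOP13 and SDA1 also had all 60 min values below all 30 min values, with differences of -0.88, -0.86 and -0.85. In the list 8 genes lay below without overlap (17.0%) and 1 above (2.13%), beside 10.2% and 6.11% of all genes. The GTPase gene NOG1 was the highest of the list (0.53).

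The small subunit processome, which processes the precursor of the small subunit RNA, showed no common direction (44 genes, 5 higher and 7 lower in all 3 pairs, median -0.05, 0.16 with equal spread and 0.13, -0.12 and -0.26 without replicates 1, 2 and 3). Its member KRR1 had -0.36, -0.68 and -1.60 at 30 min and -3.13, -1.59 and -2.49 at 60 min (-1.52 ± 0.38, adjusted p = 0.0942). LRP1, a cofactor of the nuclear exosome, which trims ribosomal RNA precursors, had -0.55, -0.93 and -0.96 at 30 min and -2.91, -1.97 and -2.78 at 60 min. It stood lower in every pair without overlap (-1.74 ± 0.41, adjusted p = 0.0764). PUS7, an RNA pseudouridine synthase, had the lowest value in the tables, -6.64, on the first 60 min array, which is the log2 of 0.01. Its difference of -2.07 rests on that value and was -0.54 without replicate 1.

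Aminoacyl-tRNA synthetases load amino acids onto tRNA. Of 20 tested genes, 12 were lower in all 3 pairs and 3 higher (60% and 15%, beside 21.6% and 20.0% of all genes). The median difference of the 20 was -0.37, and -0.11 with equal spread. None passed. ILS1, the isoleucine enzyme, had -0.77, -0.25 and -0.66 at 30 min and -2.02, -0.80 and -1.24 at 60 min (-0.79 ± 0.34, adjusted p = 0.257). The mitochondrial enzymes MSF1 and MSE1 differed by -0.60 and -0.59, each without overlap. The enzymes for serine and tyrosine, SES1 and TYS1, were higher by 0.50 and 0.72 in the mean, with adjusted p of 0.453 and 0.344.

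Transcripts of core histone genes are made chiefly in S phase. The list of 7 tested genes holds 6 core histone genes and the variant gene HTZ1. The 6 core genes were lower at 60 min in the mean, HTZ1 was higher, and none passed. HTA1, for histone H2A, had 0.90, -0.86 and 0.06 at 30 min and -0.77, -1.41 and -2.31 at 60 min (-1.53 ± 0.38, adjusted p = 0.0942). HHF1 and HHF2, which encode the same histone H4, differed by -1.18 and -1.03. HHT1 and HHT2, which encode the same histone H3, differed by -0.99 each, and HTB1, for H2B, by -0.43. The copies may not be kept apart by the arrays. The variant gene HTZ1, for H2A.Z, was higher in all 3 pairs (0.82 ± 0.38, adjusted p = 0.307). The median difference was -0.99, with -0.75, -0.55 and -1.34 by pair, and -0.96 with equal spread. HHF1, HHF2, HHT1 and HTB1 are the 4 that lay within 0.01 of 0.20 on the third 30 min array, and HHT1 and HTA1 lay within 0.01 of 0.89 on the first. This leaves the core gene HHT2 and the variant gene HTZ1, of opposite sign, as the 2 genes away from both values.

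**Figure D4:**
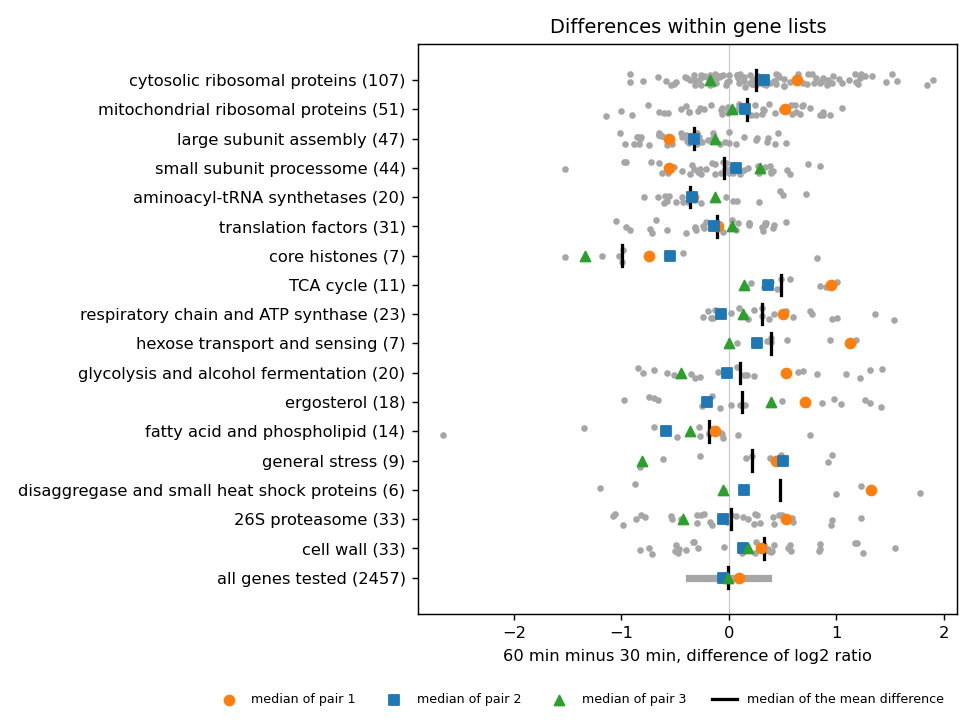
Difference between 60 and 30 min (horizontal axis, log2 scale) of each tested member of 17 gene lists (grey points), with the median of each pair as a coloured marker and the median of the mean differences as a black line. For all genes tested the grey bar spans the lower to the upper quartile. The histone median lies at -0.99 and the TCA cycle median at 0.48, and the pair medians of the ribosomal protein, small subunit processome and glycolysis lists fall on both sides of 0.

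Genes of mitochondrial energy production had differences mostly above 0. All 11 tested genes of the TCA cycle had a mean difference above 0, 5 were higher in all 3 pairs and 0 lower, and none passed. The median was 0.48, or 0.21 with equal spread and 0.30 without replicate 1. IDH1 and IDH2, the subunits of isocitrate dehydrogenase, differed by 1.01 ± 0.36 (adjusted p = 0.201) and 0.91 ± 0.39. SDH2, the iron-sulfur subunit of succinate dehydrogenase, differed by 0.92, and LPD1, lipoamide dehydrogenase, by 0.85. The third pair of IDH2 differed by -0.27. Without replicate 1 the difference was 0.34 for IDH2 and 0.37 for LPD1. IDH1 had 1.42, 1.74 and 1.20 at 30 min and 2.76, 3.35 and 1.28 at 60 min. It was above the culture before freezing on all 6 arrays, and the third pair hardly differed.

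The respiratory chain and ATP synthase list had 23 tested genes, of which 8 were higher in all 3 pairs and 0 lower, with a median of 0.31, 0.32 with equal spread and 0.16 without replicate 1. By pair the median was 0.50, -0.08 and 0.13. COX5B, the cytochrome oxidase subunit used when oxygen is low, had 1.32, 1.26 and 1.32 at 30 min and 2.98, 3.44 and 1.54 at 60 min, without overlap (1.35 ± 0.38, adjusted p = 0.112). The ATP synthase genes ATP14 and ATP15 also had groups apart, with differences of 1.54 (adjusted p = 0.102) and 1.00 (adjusted p = 0.203). Mitochondrial ribosomal protein genes were higher in all 3 pairs for 18 of 51 tested and lower for 8. These shares were 35.3% and 15.7%, beside 20.0% and 21.6% of all genes. The list median was 0.17, and 0.089 without replicate 1, and 1 gene, MRPS17, was lower in the fit of 6 arrays (-1.15).

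Among fermentation genes, ADH1, the main alcohol dehydrogenase that makes ethanol, had -0.94, 0.30 and -0.14 at 30 min and 1.64, 1.62 and 0.23 at 60 min (1.42 ± 0.38, adjusted p = 0.108). GPM1, phosphoglycerate mutase, and PDC5, a pyruvate decarboxylase, differed by 1.31 and 1.22. ADH4, an alcohol dehydrogenase regulated by zinc, stood lower without overlap (-0.80, adjusted p = 0.352). The whole list of 20 tested genes had 6 higher and 5 lower in all 3 pairs and a median of 0.11, which was -0.10 with equal spread and -0.23 without replicate 1. All 7 tested genes of hexose transport and sensing had mean differences above 0, with a median of 0.39, 0.60 with equal spread and 0.13 without replicate 1, and pair medians of 1.13, 0.27 and 0.00091. The glucose transporters HXT7 and HXT3 were highest, at 1.18 ± 0.40 (adjusted p = 0.173) and 0.94 ± 0.36. The third pair of HXT7 differed by -0.28, and its difference was 0.78 without replicate 1. HXT6, nearly identical to HXT7 in sequence, differed by 0.39, but it lay within 0.01 of the repeated values 0.89, 0.20 and -0.29 on the replicate 1 and 3 arrays at 30 min and the replicate 3 array at 60 min, as HXT3 did of -0.29 on the last of these. CIT2, the peroxisomal citrate synthase, had 0.92, 0.09 and 0.33 at 30 min and -0.64, -1.46 and -1.84 at 60 min, without overlap and without passing (-1.76 ± 0.45, adjusted p = 0.0942).

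Heat shock genes had differences of both signs, and none passed. HSP26, a small heat shock protein that binds unfolding proteins, had 1.52, 2.87 and 2.23 at 30 min and 4.64, 4.11 and 3.21 at 60 min. It was high at both times, without overlap, and the difference was 1.78 ± 0.42 (adjusted p = 0.0810). Without replicate 1 the difference of HSP26 was 1.11 (adjusted p = 0.307). HSP31, a stress chaperone, differed by 1.23, and by 0.57 without replicate 1. HSP12, a membrane-associated stress protein, differed by 0.99, which rests on the first pair: it was 0.19 without replicate 1, and -0.25 with equal spread. HSP104, the disaggregase that pulls proteins out of aggregates, had 1.83, 1.55 and 1.01 at 30 min and 1.91, 1.58 and 0.76 at 60 min, a difference of -0.05. BTN2, which gathers misfolded proteins, had 2.93, 2.28 and 1.31 at 30 min and 1.43, 0.64 and 0.84 at 60 min (-1.20 ± 0.40, adjusted p = 0.158), and its relative CUR1 differed by -0.87. Over the 6 genes the median was 0.47, but -0.39 with equal spread and 0.043 without replicate 1, with 1.32, 0.14 and -0.05 by pair.

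In mitochondria the chaperonin gene HSP60 and the Hsp70 gene SSC1 had differences of opposite sign. HSP60 had 0.32, 0.71 and 0.16 at 30 min and 1.57, 2.61 and 0.77 at 60 min (1.25, adjusted p = 0.115). SSC1 had 0.56, 0.38 and 0.39 at 30 min and -1.05, -0.49 and -1.37 at 60 min (-1.41, adjusted p = 0.0942). Neither gene's groups overlapped. ERO1, the oxidase that drives disulfide formation in the endoplasmic reticulum, stood at 1.18, 0.85 and 0.88 and then at -0.19, 0.05 and -0.35 (-1.14, adjusted p = 0.128). Of 9 tested general stress genes, 3 were higher in all 3 pairs and 1 lower, with a median of 0.22 that was -0.51 with equal spread, -0.034 without replicate 1, 0.073 without replicate 2 and 0.50 without replicate 3, so its sign depended on the setting. They remained above the culture before freezing on all 6 arrays in the median, at 1.75 to 2.69 at 30 min and 0.98 to 3.59 at 60 min. SPI1, a cell wall stress protein, differed by 0.95 (adjusted p = 0.226). RTC3 differed by -0.82 (adjusted p = 0.502), which rests on the third pair. Its pairs differed by 0.24, -0.27 and -2.44, and its difference was -0.01 without replicate 3.

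Of 33 tested genes of the 26S proteasome, 3 were higher in all 3 pairs and 7 lower, and the median was 0.02 (-0.18 with equal spread and -0.28 without replicate 1). PRE6, a core particle subunit, was the highest, at 1.23 (adjusted p = 0.142). The third pair of PRE6 differed by -0.07, and its difference was 0.76 without replicate 1. The deubiquitinase UBP6 and the conjugating enzyme UBC1 differed by -1.23 and -1.29, each without overlap. Of 12 tested sulfur and methionine genes, 7 were lower in all 3 pairs (58.3%) and 0 higher. Of all genes, 21.6% were lower and 20.0% higher. The median of the sulfur and methionine genes was -0.38, -0.44 with equal spread and -0.25 without replicate 2. MET4, the activator of these genes, had -0.05, -0.38 and -0.22 at 30 min and -2.10, -0.57 and -1.49 at 60 min (-1.17, adjusted p = 0.142). SAM1 and SAM2, S-adenosylmethionine synthetases, differed by -0.70 and -0.50, each without overlap.

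At the cell surface, SAG1, the agglutinin of alpha mating type cells, lay just outside the threshold. It had 0.09, 1.41 and 0.77 at 30 min and 1.93, 3.10 and 2.26 at 60 min, without overlap and with 3 pair differences that agreed closely (1.67 ± 0.37, adjusted p = 0.0641). The cell wall list had 10 of 33 tested genes higher in all 3 pairs and 5 lower. These shares were 30.3% and 15.2%, beside 20.0% and 21.6% of all genes. The list median was 0.32, 0.19 with equal spread and 0.12, 0.21 and 0.19 without replicates 1, 2 and 3. CTS1, the chitinase that separates daughter cells, DSE1, expressed in daughter cells, and CCW12, a wall mannoprotein, differed by 1.17, 1.25 and 1.19. ASH1, a repressor that acts in daughter cells, differed by 1.12. None of these 4 passed, with adjusted p of 0.116 to 0.171.

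ARO5 was the third gene just outside the threshold, at -1.13, -1.61 and -1.56 at 30 min and -2.84, -3.07 and -3.24 at 60 min, a difference of -1.62 ± 0.37 (adjusted p = 0.0641). Its groups lay far apart. Of the 5 reading frames without a standard name with the smallest p, none passed. YHR054C differed by -1.38 (adjusted p = 0.100), YBR053C by 1.32 (adjusted p = 0.108), YER079W by -1.18 (adjusted p = 0.127), YOR338W by 1.27 (adjusted p = 0.138) and YHR022C by 1.10 (adjusted p = 0.142). YHR022C was the most even of them, with -0.18, -0.10 and -0.10 at 30 min and 1.11, 0.84 and 0.98 at 60 min.

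Relative to the culture before freezing, RPS15 and RPL8A had a mean ratio below 0 at 30 min and above 0 at 60 min. Of the 3 that fell, EIS1 went from above to below 0, and IZH4 moved farther below. The 30 min mean of OLE1 was above 0 through replicate 1, while replicates 2 and 3 were below 0 at both times. Of the 58 genes higher in the fit of 6 arrays, 36 had mean ratios on opposite sides of 0, and 22 had a 60 min mean farther above it. Of the 43 lower, 22 had means on opposite sides, 20 a 60 min mean farther below, and 1, BTN2, a mean nearer from above. Among all 1200 genes with a mean difference above 0, 29.2% had means on opposite sides of 0, as did 22.6% of the 1257 below. Genes picked for a large difference are more apt to have means on opposite sides through that choice alone. The shares are therefore no result about the picked genes.

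The same design was fitted anew for the other times, each over the genes with a value on all arrays of the times compared. The step from 15 to 30 min gave 0 calls of 1853 genes in limma, with 80 at an unadjusted p under 0.05 (4.32%). The span from 15 to 60 min gave 174 of 1871 (9.30%), with 544 (29.1%). These comparisons share arrays with the comparison above but cover other gene sets, and the difference between the steps was not tested. IZH4 stood at 1.03, -0.27 and 0.64 at 15 min, above its 30 min value in each replicate. At 15 min EIS1 had 0.46, 1.76 and 0.31, above the culture before freezing on all 3 arrays. OLE1 had 0.46, 0.35 and 0.01, the last being the commonest value of the third 15 min array, with 138 of 5087 genes within 0.01 of it. RPS15 had -1.21, -0.56 and -0.91 at 15 min, below the culture before freezing on all 3 arrays, as RPS0B was. RPL8A had -0.38, 0.98 and -0.76, below that culture in replicates 1 and 3 and above it in replicate 2.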

How the data were processed

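The authors deposited log2 ratios per spot, which they had normalized by LOWESS, an intensity-dependent correction within each array, from spots of flag value 0, per the labels. The log base was taken from the lowest value, the log2 of 0.01. No source used here names the background correction, the scanner or a genome build, and intensities were not analysed here. The number of arrays limits the precision.

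Spots of 1 gene were averaged, and symbols came from the platform annotation (5297 and 5291 of 6272 spots had 1 symbol, 975 and 981 none), updated with RefSeq names of assembly R64 (all but 4 of 5189 genes matched). Spots without a symbol were left out of the gene comparison. No sequences or positions are given.

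The 9 arrays were fitted with limma 3.58.1 (R 4.3.3), with 1 mean per time and the replicate number as a block, which also carries the platform. The test was two-sided. Pairing by replicate number was part of how the comparison was defined. Deviations from the group means correlated at 0.44, 0.38 and 0.16 between 30 and 60 min arrays of the same number. Between different numbers they correlated at -0.36 to 0.01. Replicate 1 was on its own platform, and deviations from a mean of 3 arrays sum to 0. For replicate 1 these correlations therefore cannot tell shared samples from a shared platform. Replicates 2 and 3 shared the second platform. There the correlations were 0.38 and 0.16 within a number and 0.009 and 0.014 across numbers. What arrays of 1 number share was not tested. The labels do not say whether arrays of 1 number share a culture or a control. Alternatives were the fit without the block, the 6 arrays alone, equal spread, median centring, array weights, robust moderation, the lowest value as missing, every spot on its own and leaving out each replicate.

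The members and the 49 gene lists were chosen with earlier results of these data known. Genes named were the passed genes, up to 10 in each direction, up to 3 passed members of a list, up to 3 passed genes in each direction whose mean ratio changed sign, the 3 on each side of the threshold and the 5 unnamed reading frames of smallest p. All other genes named were added after their values were seen. A gene that passed is not reported here. It stays in the counts over all genes and was left out of the lists.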

Additional observations from a re-analysis of the deposited data

Results flagged for a closer look

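Groups of 3 arrays are too small for the test of single outlying samples used elsewhere, so none was run. Among spots that carry no gene symbol, which the gene comparison leaves out, 112 of 961 had a value on all 6 arrays and 1 passed when every spot was tested on its own in limma, with 17 at an unadjusted p under 0.05. This spot had log2 ratios of -1.22, -0.68 and -1.45 at 30 min and -3.03, -2.46 and -2.81 at 60 min. All 60 min values lay below all 30 min values, and the difference was -1.65 ± 0.36 (adjusted p = 0.0464). What the spot holds is not given in the annotation used here.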

How the results depend on the processing

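The fit of 9 arrays called 3 genes higher and 3 lower. With no replicate block the counts were 0 and 0, with 9 arrays or with 6, and with equal spread they were also 0 and 0. The replicate block with 6 arrays gave 58 and 43, and array weights gave 45 and 35. Leaving out each replicate gave 1 to 6 higher and 0 to 16 lower, over 2847 to 2976 genes. Robust moderation, the lowest value as missing, median centring and every spot on its own gave 3 or 4 higher and 2 to 4 lower. Of the 6 genes, 2, 5 and 1 passed without replicates 1, 2 and 3. The comparison was defined with arrays paired by replicate number, so the block is the main design. That pairing was assumed, and all 6 calls depend on it.

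The fit of 6 arrays, whose alternatives were chosen after seeing the data, gave 22 higher and 27 lower with equal spread and 23 and 12 with median centring. Leaving out each replicate there gave 0 to 75 higher and 0 to 24 lower, over 2847 to 2976 genes. Its calls rest on a spread shared strongly across genes (prior degrees of freedom 130.9 against 17.06 with 9 arrays).

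Among the genes named, the difference ranged over -0.00039 to 0.83 for HXT6, -0.38 to 0.023 for IZH1 and -0.11 to 0.055 for HSP104 when a replicate was left out. It was 0.0047 for HSP104 with array weights and -0.25 for HSP12 with equal spread. None of these was near the threshold. No other named gene changed sign under any alternative run. The median of 18 of the 49 gene lists turned sign when a replicate was left out, and 43 turned or moved by over 1.5 times. Among the lists described, the small subunit processome, glycolysis, 26S proteasome and general stress lists turned, each without replicate 1. The cause of these differences was not tested.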
